A study of Mus musculus with 8 samples.

Results

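Mouse embryonic fibroblasts (MEFs) that lack caveolin-1 (Cav1KO) were compared between a stiff and a soft substrate. The comparison comprised 4 of the 8 RNA-seq libraries of the study, selected because their labels give that genotype and 1 of these substrates. These were Cav1KO stiff 1 and 2, from immortalized Cav1KO MEFs on 55 kPa polyacrylamide hydrogels, and Cav1KO soft 1 and 2, from the same genotype on 0.2 kPa hydrogels. All gels were coated with fibronectin, and cells were plated at low confluence and harvested after 24 h. The other 4 libraries came from immortalized MEFs of wild-type (WT) littermates on the same gels. They enter below mainly where the difference between the genotypes was tested, and also in checks of marker levels, spread and transcript length. Every group, WT included, holds immortalized cells, whose cell cycle control can differ from that of primary fibroblasts. The sources used here do not say whether the 2 libraries of a group came from separate cultures or cell lines. The p-values therefore measure only the spread between these libraries, which may be technical.

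CAV1 is the main coat protein of caveolae, small pits of the plasma membrane that flatten when the membrane is under tension. A fibroblast senses stiffness by pulling on its matrix through integrins, focal adhesions and actomyosin. On stiff matrix such cells spread, assemble stress fibers and enter the cell cycle more readily, and the transcriptional coactivator YAP moves to the nucleus, whereas on soft matrix they stay rounder. Caveolae also gather cholesterol and signaling receptors at the cell surface.

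Poly(A) RNA was sequenced as single reads of 60 nt, and values are TMM-normalized CPM, reads of a gene relative to the TMM-scaled size of its library. The Cav1KO libraries held from 17137635 to 19020881 reads, and 3 reads, the limit that a count of 0 allows for counting error alone, corresponded to 0.154 to 0.177 CPM. Cav1 itself had from 1 to 8 reads in each Cav1KO library (0.0523 to 0.411 CPM) against 949.8 CPM or more in each WT library. The fibroblast label was checked against 16 markers. Of these, 14 were among the genes analysed here and all 14 were above 1 CPM in every Cav1KO library, whereas no epithelial or endothelial marker was among the genes analysed. The summed level of the 14 fibroblast markers was 7058 and 5862 CPM in the stiff libraries and 15817 and 15914 CPM in the soft libraries, with 12 markers called lower on the stiff substrate and 2 called higher. In such bulk samples, fewer cells of a type and less RNA per cell cannot be told apart. Of the macrophage markers, only Cd68 was among the genes analysed, at 1.04 to 4.55 CPM in the Cav1KO libraries. Of 7 adipocyte markers, 3 were among the genes analysed (Adipoq and Plin1 were not), with a sum of 103.5 and 107.1 CPM on the stiff and 160.2 and 156.2 CPM on the soft substrate. Nearly all of it was Fabp4, a fatty acid carrier, at 101.8 to 158.5 CPM against 0.201 to 2.48 CPM in WT cells, which was called lower on the stiff substrate (-0.58). Of 8 neural markers, 3 were among them, with a sum of 32.1 to 42.0 CPM, and Tubb3, a tubulin, was called higher (0.34). The only skeletal muscle marker among them, Mylpf, stayed at 0.366 to 0.706 CPM. The part of such cells in the results was not tested.

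The 2 stiff libraries differed more than the 2 soft ones, with chi-square values of 17.5 against 3.44 for each degree of freedom, so both exceeded counting error. Their difference followed transcript length. Cav1KO stiff 2 was lower than Cav1KO stiff 1 by a median of 0.34 on the log2 scale for the 681 genes with transcripts over 8000 nt, and higher by 0.18 for the 800 genes with transcripts up to 1000 nt. WT stiff 2 differed from WT stiff 1 in the same way, by -0.24 and 0.17 for these classes. WT soft 2 differed from WT soft 1 the other way, by 0.13 and -0.08. Medians of several lists that hold many long transcripts are therefore given below for each Cav1KO stiff library. Lists given without such medians can depend on length as well.

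Genes were compared by limma as log2(CPM + 1), which makes the change of weakly expressed genes look smaller, with Benjamini-Hochberg adjustment over 12494 genes. At an adjusted p under 0.05, 3488 genes (27.9%) were higher and 3527 genes (28.2%) were lower on the stiff substrate in Cav1KO cells. With a change of at least 2-fold as well, 425 genes (3.40%) were higher and 1048 genes (8.39%) were lower, so large changes were mostly decreases. The balance of the calls moved with the scaling, to 3989 higher and 2960 lower under median centring and to 3826 and 3014 under quantile normalization. These shares are the background for every list below, and the median log2 fold change over all genes tested was -0.02. Stiff and soft libraries did not overlap for 9811 genes (78.5%), which is the background for each lack of overlap named below. Where a list below has 0 calls in a direction in Cav1KO cells by limma, an unadjusted limma p under 0.05, edgeR and DESeq2 gave 0 or 1 gene each. The difference between the stiffness effects of the genotypes passed the threshold for 750 genes (6.0%) with a higher effect in Cav1KO cells and for 559 genes (4.47%) with a lower effect. The shares of 6.0% and 4.47% are the background for the genotype differences in every list below. For each gene limma pools the spread over the 4 groups, and a group left with 1 library adds nothing to it. The Cav1KO soft pair was the closest, with a median SD of 0.0545 on the log2 scale against 0.0924 to 0.117 in the other groups. Whether a call lost below without 1 library reflects that library's values or this spread was not tested. The counts of 750 and 559 changed when 1 library was left out. They were 74 and 36 without Cav1KO soft 1, 79 and 40 without Cav1KO soft 2, 215 and 162 without Cav1KO stiff 2, and 1689 and 1747 without Cav1KO stiff 1.

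**Figure D1:**
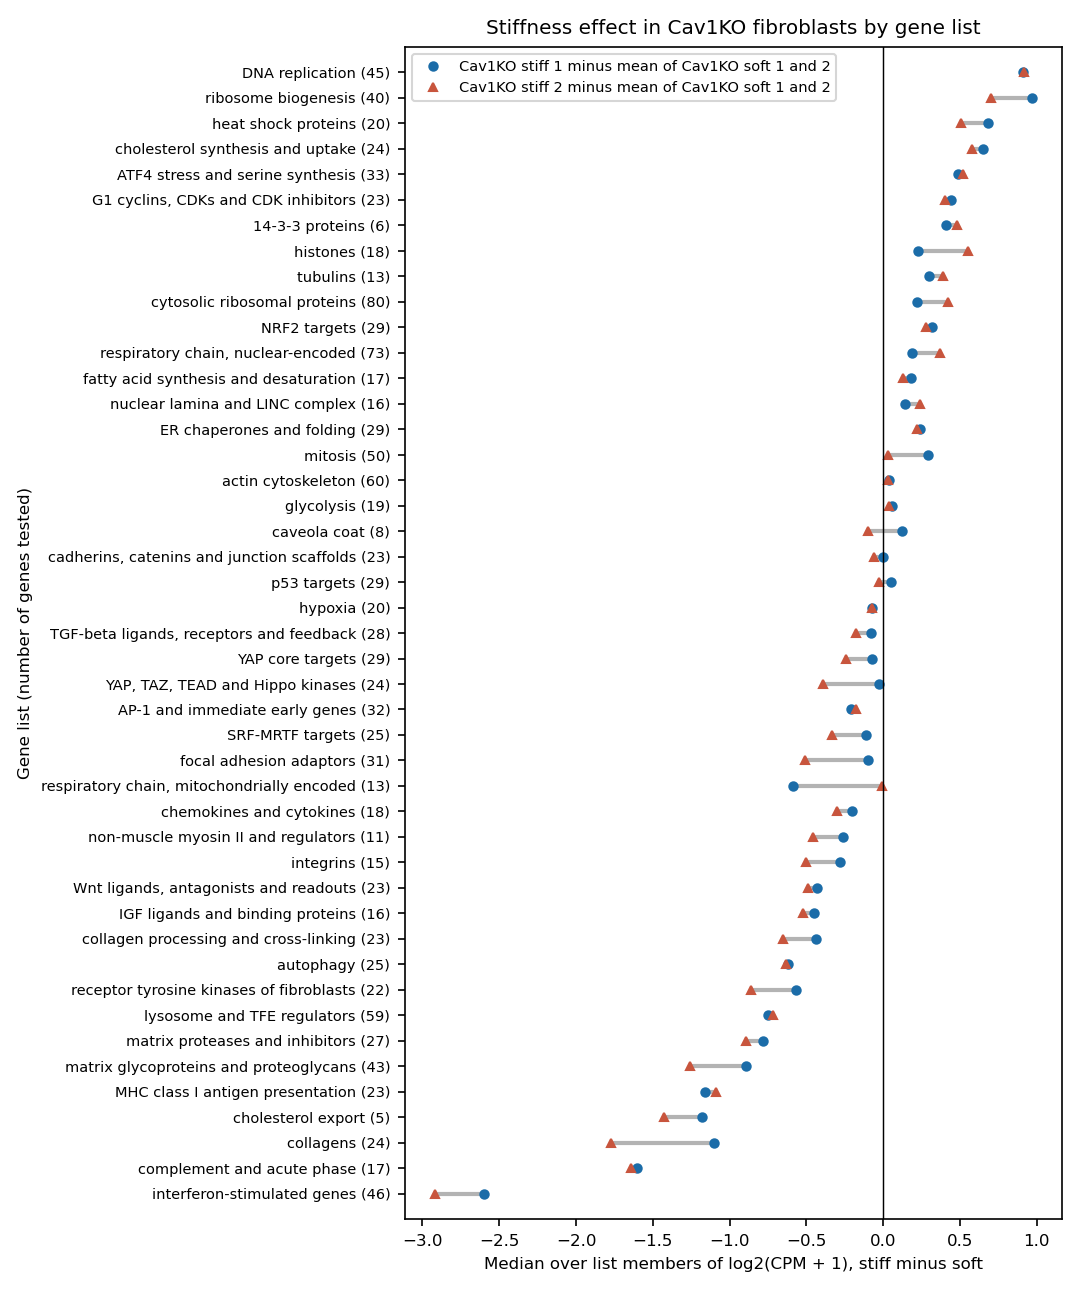
Median log2 difference between stiff and soft over the tested members of 45 gene lists (vertical axis, number of genes in parentheses), for each stiff library against the mean of the soft libraries; the grey bar joins both values. Interferon-stimulated genes lie lowest (-2.60 and -2.92), DNA replication and ribosome biogenesis highest, and the collagens differ most between the stiff libraries among the lists that were lower (-1.10 and -1.77).

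Among protein-coding genes past the threshold with a mean of at least 5 CPM and no overlap between substrates, the gene that rose most was Mcpt8, a granule serine protease otherwise known from basophils. Mcpt8 had 35.3 and 36.2 CPM in the stiff libraries and 3.76 and 2.88 CPM in the soft libraries, a 10.8-fold difference (log2 fold change 3.10, SE 0.16, limma adjusted p = 9.12e-06). The next largest rises under these limits ran from 2.53 for U90926 to 1.70 for Gsr, glutathione reductase. Among those in between were Akr1c18, a hydroxysteroid dehydrogenase (2.18), Odc1, the rate-limiting enzyme of polyamine synthesis (2.05), Il13ra2, a decoy receptor for interleukin-13 (2.03), Ramp3 (1.94), Ung, a uracil-DNA glycosylase (1.84), Slc7a5, a transporter of large neutral amino acids (1.81), Ccne2, cyclin E2 (1.81), and Psat1, an enzyme of serine synthesis (1.71). Odc1 was among the more abundant of these, at 845.4 and 962.6 CPM on the stiff and 219.4 and 215.5 CPM on the soft substrate.

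The largest falls under the same limits reached higher folds. Agt, angiotensinogen, had 6.0 and 6.41 CPM in the stiff libraries and 215.1 and 214.3 CPM in the soft libraries, 34.6-fold lower on the stiff substrate (log2 fold change -4.90, SE 0.16, limma adjusted p = 2.99e-06). Serpina3n, an acute phase inhibitor of serine proteases, had 5.18 and 3.56 CPM on the stiff and 119.3 and 124.8 CPM on the soft substrate (log2 fold change -4.53). Sned1, a secreted matrix protein, had 9.77 and 3.84 CPM against 140.4 and 129.7 CPM (log2 fold change -4.24), and 18.7% of the 60-nt windows of its transcript also occur in another listed gene, which leaves its value uncertain. The other 9 of the 12 largest falls were Ifit3, Tgtp2, Iigp1, Oasl2, Tgtp1, Usp18, Ifi44, Irgm2 and Ifit1, all known as genes induced by interferons, with log2 fold changes from -4.85 to -3.87.

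Interferons are secreted antiviral signals that act through STAT and IRF factors on a promoter element, the interferon-stimulated response element. Of 46 interferon-stimulated genes tested, 45 were called lower on the stiff substrate in Cav1KO cells and 0 higher, beside 28.2% and 27.9% of all genes. Their median log2 fold change was -2.76 (-2.60 with Cav1KO stiff 1 and -2.92 with Cav1KO stiff 2), and 43 fell at least 2-fold. Ifit3, an antiviral RNA-response protein, had 6.77 and 4.49 CPM on the stiff and 189.3 and 184.7 CPM on the soft substrate, 33.2-fold lower on the stiff substrate (log2 fold change -4.85, SE 0.35, limma adjusted p = 2.17e-05). Iigp1, an interferon-inducible GTPase, had only 0.824 and 0.932 CPM on the stiff substrate, against 36.8 and 37.7 CPM on the soft one. Usp18, the protease that removes ISG15 and damps interferon signaling, had 1.88 and 2.69 CPM against 51.2 and 52.7 CPM (log2 fold change -4.02). The induced genes and this negative regulator thus stood lower together. The most abundant member, Bst2 (tetherin, which holds budding virions at the cell surface), had 34.3 and 33.3 CPM on the stiff and 291.8 and 288.9 CPM on the soft substrate (log2 fold change -3.07). No stiff library overlapped a soft one for any of these 4 genes. A lack of overlap was a condition for choosing Ifit3, Iigp1 and Usp18 and held for 78.5% of all genes tested. In WT cells 44 of the 46 interferon-stimulated genes were called lower as well (median -2.12). The difference between the genotypes passed the threshold for 4 of them, each with the lower effect in Cav1KO cells.

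The promoters of these genes are shown because so many of them fell. Windows of 60 bases upstream of the RefSeq start (GRCm38.p6), read on the strand of the gene, carry the core GAAANNGAA of the response element on either strand, marked by capitals, for Ifit3 at chr19:34583349-34583408 (+), Ifit1 at chr19:34640755-34640814 (+) and Irgm2 at chr11:58214888-58214947 (+).
Ifit3: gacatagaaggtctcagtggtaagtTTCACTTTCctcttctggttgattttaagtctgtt
Ifit1: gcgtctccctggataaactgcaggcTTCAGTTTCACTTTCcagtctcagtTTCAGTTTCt
Irgm2: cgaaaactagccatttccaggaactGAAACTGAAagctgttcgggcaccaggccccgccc
The Ifit1 window holds 3 matches, of which 2 overlap. Of the 34 interferon-stimulated genes with a RefSeq promoter of 300 bases, 22 (64.7%) held the core. It was in 8.59% of the tested genes with such a promoter and 8.56% of all RefSeq promoters. The share of the list describes its members and was not tested against the stiffness effect. Among all tested genes with such a promoter, the core was in 10.9% of those called lower, 6.73% of those called higher and 8.28% of those not called. A match describes these letters and does not show that a factor is bound. Ifit3 shares 47.0% of its 60-nt windows with another listed gene, and Tgtp1 and Tgtp2 share 79.6% and 84.4%, mostly with each other, so the values of these 3 genes are uncertain.

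MHC class I presentation, whose genes display peptides to T cells and are raised by interferons, was lower as well. Of 23 members tested, 18 were called lower and 3 higher, with a median of -1.13. B2m, the light chain common to all class I molecules, had 295.9 and 248.6 CPM on the stiff and 1309 and 1286 CPM on the soft substrate (log2 fold change -2.25, SE 0.14). The heavy chain gene H2-K1 (-2.34) and the immunoproteasome subunit Psmb9 (-2.30) fell alongside. The largest of the 3 rises was that of Calr, the chaperone calreticulin, with 2009 and 1957 CPM against 1179 and 1223 CPM (log2 fold change 0.72). In WT cells 21 of the 23 genes were called lower (median -1.30). The difference between the genotypes passed for 3 genes with a higher and 1 with a lower effect in Cav1KO cells.

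Complement and acute phase genes, which tag microbes and mark inflammation, followed the same direction. Of 17 tested, 15 were called lower, all at least 2-fold, and 1 higher, with a median of -1.54. C3, the central complement component, had 205.4 and 108.4 CPM on the stiff and 1289 and 1275 CPM on the soft substrate (log2 fold change -3.09, SE 0.29, limma adjusted p = 5.8e-05). The C3 effect of the 2 stiff libraries differed, at -2.64 without Cav1KO stiff 2 and -3.55 without Cav1KO stiff 1. The log2 fold change was -2.78 for C1s1, which shares 30.4% of its windows with another listed gene, -2.32 for C1ra, of whose windows 47.1% occur in another annotated gene, -2.60 for Lbp, which presents bacterial lipopolysaccharide, and -1.69 for Saa3, still 597.5 and 604.3 CPM on the stiff substrate. The exception was Ptx3, a soluble pattern recognition protein of local inflammation, which rose from 127.7 and 140.4 CPM to 411.5 and 394.6 CPM (log2 fold change 1.58).

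Chemokines and cytokines did not move one way, with 5 of 18 called higher and 7 lower. Il6, a cytokine of the acute phase response, had 9.83 and 9.15 CPM on the stiff and 3.71 and 2.73 CPM on the soft substrate (log2 fold change 1.32, SE 0.15). Ccl2, which attracts monocytes, had 17.0 and 16.8 CPM against 7.37 and 6.99 CPM (log2 fold change 1.13). In WT cells the same genes had log2 fold changes of -1.27 and -0.40, and the difference between the genotypes passed the threshold for both (2.59 for Il6, limma adjusted p = 0.00161, and 1.53 for Ccl2, limma adjusted p = 0.00254). Cx3cl1 fell by 1.34 on the log2 scale, and the more abundant Cxcl12 and Cxcl5 fell by 0.71 and 0.51.

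Extracellular matrix genes, the product for which fibroblasts are best known, were mostly lower on the stiff substrate. Of 24 collagens tested, 18 were called lower, 13 of them at least 2-fold, and 1 higher. The median was -1.44, which was -1.10 with Cav1KO stiff 1 and -1.77 with Cav1KO stiff 2. Col6a2, a chain of the beaded filaments around cells, had 91.2 and 66.8 CPM on the stiff and 519.0 and 538.5 CPM on the soft substrate (log2 fold change -2.74, SE 0.14, limma adjusted p = 9.12e-06). Col3a1, a chain of fibrillar collagen III, had 77.9 and 50.4 CPM against 320.8 and 336.0 CPM (log2 fold change -2.37). Both stiff libraries lay under both soft libraries for each of these chains, and 78.5% of all genes tested had no overlap in either direction.

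Collagen I is the main fibrillar collagen of connective tissue. Col1a1 had 858.9 and 591.1 CPM on the stiff and 2137 and 2212 CPM on the soft substrate in Cav1KO cells (log2 fold change -1.61, SE 0.16), whereas in WT cells its level was 2612 and 2515 CPM on the stiff and 2035 and 2273 CPM on the soft substrate (log2 fold change 0.25). The difference between the genotypes was -1.86 (SE 0.22, limma adjusted p = 0.00457). Its partner chain Col1a2 fell by 1.70 in Cav1KO cells with a difference of -1.05 (limma adjusted p = 0.0126, but 0.0768 and 0.0756 without Cav1KO soft 1 and soft 2). Over the collagens, the effect was lower in Cav1KO than in WT cells for 11 genes and higher for 3, which became 2 and 1 without Cav1KO soft 1 and 2 and 2 without Cav1KO soft 2. The only collagen called higher on the stiff substrate was Col8a1, of the network-forming collagens, with 31.2 and 22.9 CPM against 16 and 16.4 CPM (log2 fold change 0.69).

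Among the matrix glycoproteins and proteoglycans, 33 of 43 were called lower and 0 higher. The median was -1.04, or -0.89 with Cav1KO stiff 1 and -1.26 with Cav1KO stiff 2. Fn1 encodes fibronectin, the protein that also coated the gels. Fn1 had 975.4 and 625.5 CPM on the stiff and 3089 and 2972 CPM on the soft substrate (log2 fold change -1.95, SE 0.19), with a difference from WT cells of -1.66 (limma adjusted p = 0.0136, but 0.0806 and 0.0683 without Cav1KO soft 1 and soft 2). Postn, periostin, fell from 490.4 and 485.6 CPM to 93.3 and 59.2 CPM (log2 fold change -2.70). The proteoglycans Prelp and Ogn fell by 2.74 and 2.56, and the abundant Bgn, biglycan, fell by 0.95. Enzymes that process or cross-link collagen were lower in 14 of 23 cases and higher in 0, led by Bmp1, the procollagen C-proteinase (-1.88).

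Matrix proteases and their inhibitors went down together with the matrix, with 20 of 27 called lower and 4 higher. Mmp14, the membrane-bound collagenase that activates pro-MMP2, had 54.8 and 43.2 CPM on the stiff and 264.2 and 258.8 CPM on the soft substrate (log2 fold change -2.40, SE 0.14). Mmp2 itself had 338.6 and 282.0 CPM against 1150 and 1199 CPM (log2 fold change -1.92), and the log2 fold change was -2.78 for the collagenase Mmp13 and -2.27 for the gelatinase Mmp9. The inhibitors of these enzymes split. Timp1 rose from 261.4 and 257.9 CPM to 575.1 and 732.1 CPM (log2 fold change 1.32), and Timp2 fell from 862.0 and 884.8 CPM to 520.2 and 499.4 CPM (log2 fold change -0.78).

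Receptor tyrosine kinases of fibroblasts, through which growth factors act, were lower in 17 of 22 cases and higher in 2 (median -0.68, or -0.57 and -0.86 with the first and second stiff library). Pdgfra, a receptor for platelet-derived growth factor, had 152.0 and 117.3 CPM on the stiff and 385.7 and 384.7 CPM on the soft substrate (log2 fold change -1.52, SE 0.13). Pdgfrb fell by 1.43 and Fgfr1 by 1.14. Of the IGF ligands and binding proteins, 9 of 16 were called lower and 2 higher. Igf2, a fetal growth factor, had 143.5 and 100.5 CPM against 486.5 and 488.2 CPM (log2 fold change -2.01), with 61.5% of its windows in another annotated gene, and Igfbp2, which binds it, had 145.8 and 165.0 CPM against 299.3 and 310.7 CPM (log2 fold change -0.97).

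**Figure D2:**
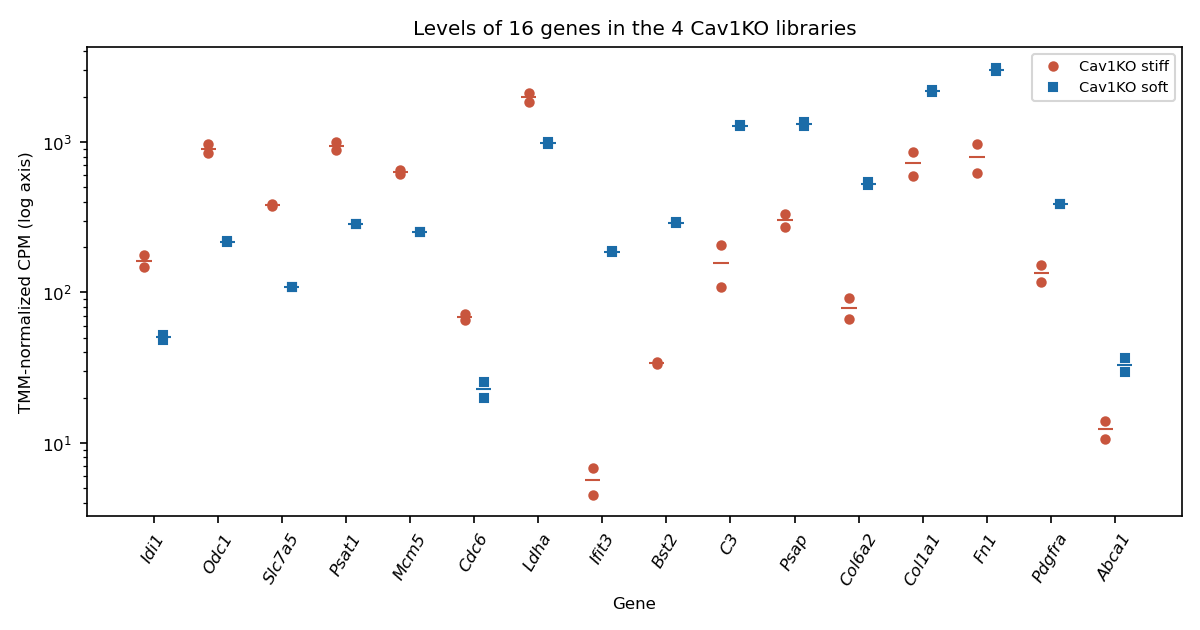
TMM-normalized CPM (log axis) of 16 genes in the 4 Cav1KO libraries; points are libraries and short lines group means. Stiff and soft libraries do not overlap for any of these genes, as for 78.5% of all genes tested. Ifit3 shows the widest gap among those that fell, ahead of Bst2 and C3.

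Lysosomal genes, which encode the hydrolases and proton pumps of the degradative compartment, were lower in 47 of 59 cases and higher in 1 (median -0.71, with nearly equal medians of -0.75 and -0.72 for the 2 stiff libraries). Psap, prosaposin, which helps sphingolipid breakdown, had 334.0 and 273.2 CPM on the stiff and 1281 and 1351 CPM on the soft substrate (log2 fold change -2.12, SE 0.11, limma adjusted p = 9.12e-06). Grn, progranulin, had 182.4 and 170.3 CPM against 748.1 and 782.0 CPM (log2 fold change -2.11), and the acid glucosidase Gaa had 110.8 and 86.6 CPM against 362.2 and 365.4 CPM (log2 fold change -1.88). The cathepsin Ctsb fell by 1.98, with 12% of its windows also in another gene. Another abundant cathepsin, Ctsl, had 1240 and 1304 CPM against 1427 and 1550 CPM and missed the threshold (log2 fold change -0.23, limma adjusted p = 0.0958, and 0.00235 under quantile normalization), unlike its log2 fold change of -1.40 in WT cells, a difference that did pass (1.17, limma adjusted p = 0.00571). The 1 gene called higher was Atp6v1c1, a subunit of the proton pump (0.31, limma adjusted p = 0.023), a call lost without any of Cav1KO soft 1, Cav1KO soft 2 or Cav1KO stiff 2 (limma adjusted p = 0.0971, 0.0963 and 0.136). In WT cells 51 of the 59 lysosomal genes were called lower (median -0.89). The difference between the genotypes passed for 5 genes with a higher and 4 with a lower effect in Cav1KO cells. The promoters of 7 of 46 lysosomal genes (15.2%) held TCACGTGA, the core of the element bound by TFEB. It was in 2.29% of the tested genes and 0.974% of all RefSeq promoters. Among tested genes it was in 2.91% of those called lower in Cav1KO cells, 1.72% of those called higher and 2.24% of those not called.

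Autophagy genes, which deliver cargo to the lysosome, were lower in 17 of 25 cases and higher in 5 (median -0.64), or in 2 without Cav1KO soft 1 or stiff 2 and in 3 without Cav1KO soft 2. The autophagy receptor Calcoco1 had 26.1 and 24.1 CPM on the stiff and 104.2 and 108.3 CPM on the soft substrate (log2 fold change -2.04, SE 0.09). Map1lc3b, the membrane tag LC3B, fell by 1.11 and Sqstm1, the receptor p62, by 0.69. The largest rise was that of Atg5, part of the conjugation machinery (0.58).

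Cholesterol synthesis and uptake, controlled by the transcription factor SREBP2, held the largest share among the 45 lists of genes whose effect differed between the genotypes. Of 24 genes tested, 20 were called higher on the stiff substrate in Cav1KO cells and 0 lower, with a median of 0.60, whereas the median in WT cells was -0.11. The difference between the genotypes passed the threshold for 19 of the 24 genes, all with the higher effect in Cav1KO cells, beside 6.0% of all genes, and for 10, 9 and 14 of them without Cav1KO soft 1, soft 2 and stiff 2. Idi1, which makes the isoprenoid building block dimethylallyl diphosphate, had 146.5 and 177.4 CPM on the stiff and 48.5 and 51.8 CPM on the soft substrate (log2 fold change 1.66, SE 0.11, limma adjusted p = 1.48e-05). In WT cells Idi1 had 71.0 and 81.7 CPM against 102.5 and 101.0 CPM (log2 fold change -0.41), so the WT levels lay between the Cav1KO levels on both substrates (difference 2.08, SE 0.15, limma adjusted p = 0.00131). Of the 60-nt windows of the Idi1 transcript, 17.3% also occur in another listed gene.

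Later steps of the pathway behaved alike. The demethylating enzyme Msmo1 had 105.8 and 129.9 CPM on the stiff and 50.1 and 52.2 CPM on the soft substrate (log2 fold change 1.18, SE 0.13). Sqle, squalene epoxidase, rose by 0.80, and Stard4, a carrier of cholesterol between membranes, by 0.98. All 3 had a higher effect in Cav1KO than in WT cells, by 0.86 to 1.55, although the call of Sqle was lost without Cav1KO soft 2 (limma adjusted p = 0.0565). Srebf2, which encodes SREBP2, was the most abundant member and changed little, with 392.3 and 367.3 CPM against 314.3 and 334.9 CPM (log2 fold change 0.23, limma adjusted p = 0.0234), a call lost when any one of Cav1KO soft 1, Cav1KO soft 2 and Cav1KO stiff 1 was left out (limma adjusted p = 0.175, 0.0566 and 0.098). The core TCACNCCAC of the sterol regulatory element was in the promoters of 1 of 17 list genes (5.88%), 1.37% of the tested genes and 1.24% of all RefSeq promoters. Among tested genes it was in 1.16% of those called higher, 1.64% of those called lower and 1.33% of those not called.

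Genes that export cholesterol, move it out of the lysosome or limit its uptake ran the other way. All 5 tested were called lower (median -1.36), and 3 of the 8 genes of this list were not among the genes analysed. Abca1, the transporter that loads cholesterol onto apolipoproteins, had 14 and 10.6 CPM on the stiff and 36.5 and 29.5 CPM on the soft substrate (log2 fold change -1.36, SE 0.24, limma adjusted p = 0.00155). Npc2, which hands cholesterol out of the lysosome, fell by 1.5, and Mylip, which marks the LDL receptor for degradation, by 1.41. For these 5 genes the median in WT cells was -1.25. The difference between the genotypes passed the threshold for 0 of them by limma, and for 0 at an unadjusted p under 0.05, by edgeR or by DESeq2.

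**Figure D3:**
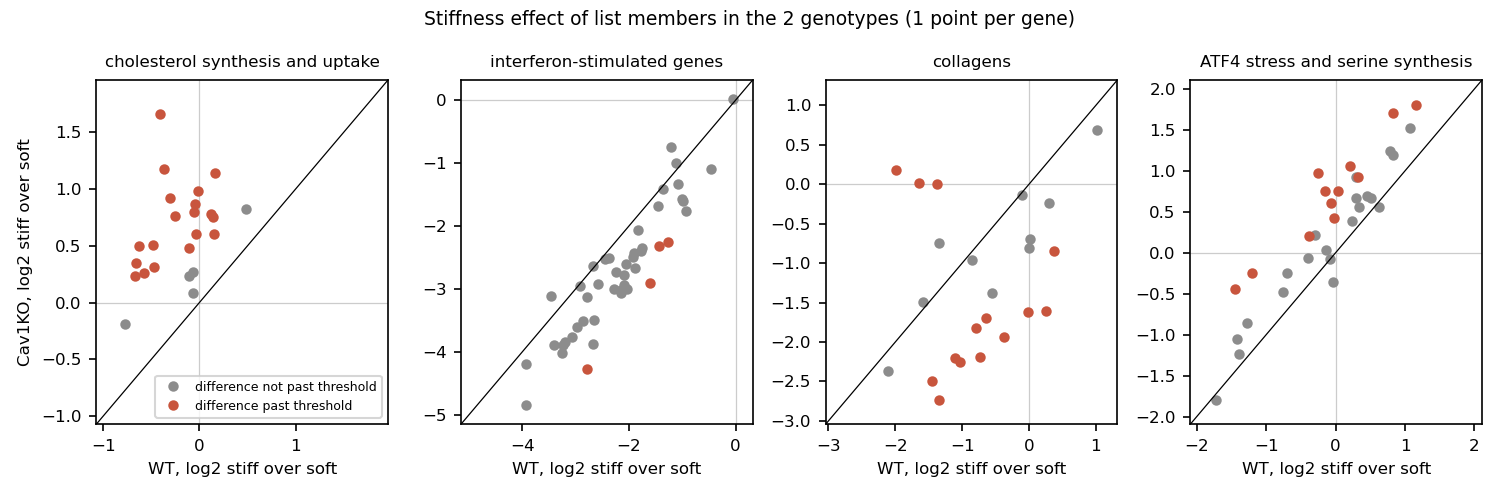
Log2 fold change stiff over soft in Cav1KO cells (vertical) against that in WT cells (horizontal), 1 point per gene, for 4 lists; red marks genes whose difference between genotypes passed the threshold and the line marks equal effects. Cholesterol genes lie above the line (19 of 24 red), interferon-stimulated genes near or below it (4 of 46 red), and most red collagens below it (11 of 14). Over all genes, 6.0% had a higher and 4.47% a lower effect in Cav1KO cells.

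Fatty acid synthesis and desaturation was mixed, with 8 of 17 called higher (5 under quantile normalization) and 3 lower. Scd2, a stearoyl-CoA desaturase, rose from 524.1 and 532.1 CPM to 833.4 and 795.6 CPM (log2 fold change 0.62), Fasn, fatty acid synthase, rose by 0.70, and Lpin1, a phosphatidate phosphatase, fell from 19.9 and 18.8 CPM to 5.41 and 4.88 CPM (log2 fold change -1.73). In glycolysis 8 of 19 genes were called higher and 5 lower. Ldha, which turns pyruvate into lactate, had 1850 and 2107 CPM on the stiff and 973.0 and 1002 CPM on the soft substrate (log2 fold change 1.0, SE 0.10, limma adjusted p = 8.38e-05). Pgam1 rose by 0.79 and Eno2 fell by 1.48. Pkm rose by 0.47, a call lost under quantile normalization (limma adjusted p = 0.14). The glucose transporter Slc2a1, counted with the hypoxia genes, had 191.3 and 209.3 CPM against 117.3 and 119.8 CPM (log2 fold change 0.75). In WT cells the log2 fold change was 0.09 for Ldha, 0.08 for Pgam1 and 0.06 for Slc2a1, and each difference passed the threshold (0.91, 0.71 and 0.69, limma adjusted p = 0.0125, 0.00979 and 0.0112). These 3 calls were lost without Cav1KO soft 1 (limma adjusted p = 0.0909, 0.0887 and 0.083) and without Cav1KO soft 2 (limma adjusted p = 0.0756, 0.0683 and 0.0683). Over the hypoxia list, 6 of 20 genes were called higher and 7 lower in Cav1KO cells, among them Hif1a, the oxygen-regulated factor itself (-0.60), and Ddit4, an inhibitor of mTORC1 (-0.86).

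DNA replication genes were higher on the stiff substrate. Of 45 tested, 40 were called higher, 19 of them at least 2-fold, and 0 lower, with a median of 0.90 that was nearly the same with either stiff library (0.91 and 0.92). Mcm5, a subunit of the replicative helicase, had 614.7 and 651.6 CPM on the stiff and 251.9 and 253.5 CPM on the soft substrate (log2 fold change 1.32, SE 0.09, limma adjusted p = 1.71e-05). Cdc6, which loads the helicase onto origins, had 71.7 and 65.8 CPM against 19.8 and 25.6 CPM (log2 fold change 1.57). Pcna, the sliding clamp, had 664.0 and 751.3 CPM against 289.8 and 278.3 CPM (log2 fold change 1.31). Enzymes that supply nucleotides rose too, with Rrm2, a subunit of ribonucleotide reductase, by 1.60 and Tk1, thymidine kinase, by 1.41. The WT median was 0.67, and the effect was higher in Cav1KO cells for 7 of the 45 genes, Pcna (0.72) and Mcm5 (0.48) among them, but for 0 without Cav1KO soft 1 or soft 2, 1 without Cav1KO stiff 2 and 15 without Cav1KO stiff 1.

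Replication genes are known targets of E2F factors, so the 2 promoter windows below are given with matches to TTTCCCGC, TTTGGCGC or TTTCGCGC on either strand in capitals. They lie upstream of the RefSeq starts (GRCm38.p6), at chr8:75109331-75109390 (+) for Mcm5 and chr11:98907988-98908047 (+) for Cdc6.
Mcm5: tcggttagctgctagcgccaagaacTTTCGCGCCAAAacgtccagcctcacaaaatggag
Cdc6: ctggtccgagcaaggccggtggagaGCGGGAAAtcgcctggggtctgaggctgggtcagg
The Mcm5 window holds 2 overlapping matches, 1 on each strand. In all, 15 of 37 replication genes with a RefSeq promoter (40.5%) held a match, beside 4.29% of the tested genes and 1.84% of all RefSeq promoters. Among tested genes with such a promoter, a match was in 5.98% of those called higher, 2.51% of those called lower and 4.39% of those not called.

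Upstream of replication, the G1 regulators were higher in 13 of 23 cases and lower in 5. E2f1, the founding E2F factor, had 118.3 and 139.4 CPM on the stiff and 49.4 and 55.3 CPM on the soft substrate (log2 fold change 1.28), and Ccne1, cyclin E1, had 75.1 and 77.7 CPM against 25.1 and 26.6 CPM (log2 fold change 1.53). Cdk4, partner of the D cyclins, rose by 0.45, and Ccnd2, cyclin D2, fell by 0.72. Cdkn2a, the locus of the inhibitors p16 and p19ARF, had 122.4 and 132.5 CPM against 279.2 and 285.8 CPM (log2 fold change -1.14). Another inhibitor, Cdkn1a (p21), was low in Cav1KO cells and rose, with 4.65 and 3.73 CPM against 1.83 and 1.44 CPM (log2 fold change 0.98), whereas in WT cells it fell by 1.10 (difference 2.07, SE 0.21, limma adjusted p = 0.00286). Among 29 p53 targets, 12 were called higher (7 without Cav1KO soft 1), led by Aen (1.15), and 7 lower, led by Trp53inp1 (-1.77).

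Mitotic genes, which act after replication, were called higher in 20 of 50 cases and lower in 6 (2 without Cav1KO soft 1 or stiff 2 and 11 without Cav1KO stiff 1), with a median of 0.29 with Cav1KO stiff 1 and 0.03 with Cav1KO stiff 2. Cenpa, the centromere histone, rose from 115.1 and 125.6 CPM to 235.6 and 294.3 CPM (log2 fold change 1.12), and Ccna2, cyclin A2, rose by 0.69. The proliferation antigen Mki67 had 10.3 and 3.95 CPM on the stiff and 22 and 18.7 CPM on the soft substrate (log2 fold change -1.51, SE 0.45, limma adjusted p = 0.0191), a call lost without Cav1KO stiff 2 (-0.91, limma adjusted p = 0.11), Cav1KO soft 1 or Cav1KO soft 2 (limma adjusted p = 0.0922 and 0.0578). Top2a and Cenpe fell by 1.06 and 1.26, and both calls were lost without Cav1KO stiff 2 (limma adjusted p = 0.0545 and 0.0624) and without Cav1KO soft 1 (limma adjusted p = 0.0519 and 0.0633). The 6 mitotic genes with transcripts over 6000 nt had a median of -0.59 and the other genes of the list one of 0.16.

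Ribosome biogenesis was higher in 31 of 40 cases and lower in 0, with a median of 0.84 (0.97 and 0.70 with the 2 stiff libraries). Nhp2, a core protein of the particles that modify ribosomal RNA, had 307.4 and 360.3 CPM on the stiff and 104.9 and 109.3 CPM on the soft substrate (log2 fold change 1.63, SE 0.11, limma adjusted p = 1.68e-05). Rrp9 rose by 1.44, Mrto4 by 1.41 and the abundant nucleolar protein Npm1 by 0.60. Nucleolin, Ncl, had 619.8 and 362.5 CPM against 344.5 and 325.7 CPM and missed the threshold (log2 fold change 0.50, limma adjusted p = 0.142). It passed without Cav1KO stiff 2 (0.89, limma adjusted p = 0.015) and with a correction for transcript length (0.84, limma adjusted p = 0.00304), whereas the value without Cav1KO stiff 1 was 0.11. In WT cells 38 of the 40 biogenesis genes were called higher (median 0.93). The difference between the genotypes passed for 1 gene with a higher and 0 with a lower effect in Cav1KO cells, or 6 lower by DESeq2. Of the ribosomal proteins themselves, 45 of 80 were called higher and 0 lower in Cav1KO cells at a smaller median of 0.33. The counts were 38 and 8 under quantile normalization (median 0.15), 34 and 9 with the length correction (median 0.14) and 27 and 0 without Cav1KO soft 1. Rpl8 was at 4007 and 4589 CPM against 2500 and 2582 CPM (log2 fold change 0.76). Many ribosomal protein genes have processed copies, and Rpl27 (1.51) and Rplp0 (0.37, limma adjusted p = 0.0534, and 0.0235 without Cav1KO stiff 1) share 22.9% and 25.1% of their windows with other listed genes.

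Amino acid supply and folding rose in part. In the ATF4 list, which holds amino acid transporters, serine synthesis and stress factors, 19 of 33 genes rose and 6 fell, and the median was 0.56 in Cav1KO and -0.03 in WT cells. Psat1 had 884.0 and 996.9 CPM on the stiff and 286.2 and 285.1 CPM on the soft substrate (log2 fold change 1.71, SE 0.10, limma adjusted p = 1.21e-05), Shmt2, the mitochondrial enzyme that draws one-carbon units from serine, had 348.6 and 345.7 CPM against 120.0 and 119.1 CPM (log2 fold change 1.53), and Slc7a5 had 373.4 and 387.0 CPM against 108.0 CPM in each soft library. The stress factor Nupr1 fell by 1.79. The effect was higher in Cav1KO than in WT cells for 12 genes of the list and lower for 0 (also 0 at an unadjusted limma p under 0.05, by edgeR or by DESeq2), beside 6.0% and 4.47% of all genes. The count of 12 was 0 without Cav1KO soft 1, 1 without Cav1KO soft 2 and 6 without Cav1KO stiff 2. Heat shock proteins were higher in 14 of 20 cases and lower in 4 (2 without Cav1KO soft 1 or soft 2), led by the mitochondrial chaperonins Hspd1 (1.17) and Hspe1 (1.11), with Cryab lower (-0.55). NRF2 targets, which serve the antioxidant defence, were higher in 14 of 29 cases and lower in 7, with Gclm, of glutathione synthesis, at 176.4 and 179.3 CPM against 77.6 and 77.5 CPM (log2 fold change 1.19) and Gstm1, a glutathione transferase, lower by 1.74. ER chaperones were called higher in 14 of 29 cases and lower in 5 (3 without Cav1KO stiff 1 and 0 without Cav1KO soft 2).

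Nuclear-encoded genes of the respiratory chain were higher in 39 of 73 cases and lower in 7, with small changes (median 0.28, or 0.19 and 0.37 with the 2 stiff libraries). The counts were 28 and 15 under quantile normalization, 28 and 17 with the length correction (median 0.09), and from 27 to 43 and from 3 to 9 with 1 library left out. Cyc1, cytochrome c1, rose from 223.7 and 230.8 CPM to 447.1 and 534.2 CPM (log2 fold change 1.10), and Atp5g1, a subunit of ATP synthase, by 0.93. Of 13 mitochondrially encoded genes, 1 was called higher and 5 lower, at medians of -0.59 with Cav1KO stiff 1 and -0.01 with Cav1KO stiff 2. The number lower was 1 without Cav1KO soft 1 or stiff 1, 2 without Cav1KO soft 2 and 6 without Cav1KO stiff 2. Among them mt-Nd4 had 19.3 and 33.6 CPM against 50.7 and 48.7 CPM (log2 fold change -0.94), with 61.9% of its windows in another annotated gene and limma adjusted p = 0.0514 when the Cav1KO groups were fitted alone, and mt-Co1 differed between the stiff libraries, with 214.7 and 402.4 CPM against 510.2 and 501.9 CPM (log2 fold change -0.78). The call of mt-Co1 was lost without Cav1KO stiff 1 (-0.33, limma adjusted p = 0.0937), Cav1KO soft 1 or Cav1KO soft 2 (limma adjusted p = 0.0993 and 0.0888). The rise of mt-Nd3 (1.44) is uncertain, since 97.9% of its windows also occur in another listed gene.

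The force-bearing machinery moved less than the matrix. Of 60 genes of the actin cytoskeleton, 20 rose and 16 fell, at a median of 0.10 that turned to -0.04 under quantile normalization. Actb, beta-actin, had 6382 and 5894 CPM on the stiff and 4319 and 4400 CPM on the soft substrate (log2 fold change 0.49, limma adjusted p = 0.0055), but its call was lost under quantile normalization (0.18, limma adjusted p = 0.194) and without Cav1KO soft 1 (limma adjusted p = 0.0501). Actg1, gamma-actin, had 3946 and 3881 CPM against 3421 and 3517 CPM and missed the threshold (0.17, limma adjusted p = 0.157, and -0.09 under quantile normalization). Gsn, gelsolin, which severs filaments, fell by 1.25 and Lima1, which cross-links them, by 1.81. Among myosin II genes and regulators 2 of 11 were called higher, with Ppp1r14b, an inhibitor of myosin phosphatase that shares 20.8% of its windows with another gene, at 1.57, and 4 were called lower. The heavy chain Myh9 had 297.0 and 138.4 CPM against 483.4 and 494.3 CPM (log2 fold change -1.27, limma adjusted p = 0.0241), a call lost without Cav1KO stiff 2 (-0.72, limma adjusted p = 0.141), Cav1KO soft 1 or Cav1KO soft 2 (limma adjusted p = 0.0849 and 0.0886).

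Focal adhesion adaptors, which link integrins to actin, were lower in 13 of 31 cases and higher in 2, and the median depended on the library, at -0.10 with Cav1KO stiff 1 and -0.51 with Cav1KO stiff 2. Vcl, vinculin, had 160.8 and 106.2 CPM on the stiff and 262.4 and 258.6 CPM on the soft substrate (log2 fold change -0.99), with 25% of its windows in another listed gene. Zyx, zyxin, had 611.9 and 542.0 CPM against 516.1 and 539.3 CPM and missed the threshold (0.13, limma adjusted p = 0.199, with 0.0441 under median centring, and -0.08 under quantile normalization). Of 15 integrins, 8 were called lower and 1 higher, and the number lower was 4 without Cav1KO soft 1, 5 without Cav1KO stiff 2 and 5 by DESeq2. The collagen receptor subunit Itga11 had 3.53 and 1.86 CPM against 16.9 and 15.9 CPM (log2 fold change -2.27), whereas the common beta chain Itgb1 had 549.1 and 453.6 CPM against 594.8 and 586.9 CPM and missed the threshold (-0.24, limma adjusted p = 0.0699, but 0.00938 without Cav1KO stiff 1, 0.0353 with the length correction and 0.00854 under quantile normalization). The SRF and MRTF targets, which read the pool of free actin, were called higher in 4 of 25 cases and lower in 8. The effect was lower in Cav1KO than in WT cells for 9 of these 25 genes and higher for 0, beside 4.47% and 6.0% of all genes. The number higher was also 0 at an unadjusted limma p under 0.05, by edgeR or by DESeq2. The count of 9 was 0 without Cav1KO soft 1 or soft 2, 2 without Cav1KO stiff 2 and 6 by edgeR. The 4 higher SRF and MRTF targets were 2 without Cav1KO soft 1 or soft 2 and under quantile normalization.

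YAP core targets were called higher in 4 of 29 cases and lower in 10, with medians of -0.07 with Cav1KO stiff 1 and -0.24 with Cav1KO stiff 2. This imbalance depended on the library and the scaling. The counts higher and lower were 6 and 6 without Cav1KO stiff 2, 3 and 12 without Cav1KO stiff 1, 2 and 6 without Cav1KO soft 1, 3 and 6 without Cav1KO soft 2, 6 and 7 with the length correction, 8 and 9 under median centring and 7 and 9 under quantile normalization. Ankrd1 had 9.30 and 8.11 CPM on the stiff and 3.24 and 3.39 CPM on the soft substrate (log2 fold change 1.17, SE 0.13, limma adjusted p = 0.000141), and the WT fold change of 0.96 differed by 0.21 (SE 0.19, limma adjusted p = 0.451). Ctgf had 6.53 and 4.66 CPM against 4.60 and 3.50 CPM and missed the threshold (0.38, limma adjusted p = 0.105), which it passed without Cav1KO stiff 2 (0.59, limma adjusted p = 0.0329), under median centring (limma adjusted p = 0.0437) and under quantile normalization (limma adjusted p = 0.00834). Cyr61 had 141.2 and 125.9 CPM against 146.1 and 152.2 CPM (log2 fold change -0.16, limma adjusted p = 0.186, and 0.0331 under quantile normalization). Yap1 itself had 158.8 and 152.6 CPM against 156.2 and 157.5 CPM, and its libraries overlapped. Its paralog Wwtr1 (TAZ) was at 337.3 and 354.0 CPM against 381.0 and 384.4 CPM (-0.15, limma adjusted p = 0.0965, and 0.00216 under quantile normalization), the partner Tead2 rose by 0.60, and Amotl1, which holds YAP in the cytoplasm, fell by 1.57. Of the 6 genes for 14-3-3 proteins, which retain phosphorylated YAP in the cytoplasm, 5 were called higher (median 0.45). The count was 4 by edgeR, by DESeq2 and under quantile normalization, and 6 under median centring. All 6 were called higher in WT cells too (median 0.26). The difference between the genotypes passed the threshold for 0 of them, although 2 had an unadjusted limma p under 0.05. In Cav1KO cells Ywhah had 196.6 and 200.6 CPM against 137.9 and 140.6 CPM (log2 fold change 0.51), and Ywhae rose by 0.73. In the caveola coat, Cav2 had 58.1 and 70.7 CPM against 44.3 and 47.9 CPM (log2 fold change 0.47), a call lost without Cav1KO soft 1 (limma adjusted p = 0.0618). Ptrf (cavin-1) had 405.6 and 309.9 CPM against 551.9 and 560.2 CPM (-0.65), and Ehd2, the ATPase at the neck of caveolae, fell by 0.67.

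Signaling, tubulin and nuclear lamina lists moved in different directions. Wnt ligands, antagonists and readouts were lower in 15 of 23 cases and higher in 1 (median -0.45, and 9 lower without Cav1KO soft 2), with Wisp2 at 181.3 and 205.8 CPM on the stiff and 544.4 and 554.3 CPM on the soft substrate (log2 fold change -1.5) and Wisp1 the 1 gene that rose (0.85). In the TGF-beta list 6 of 28 genes were called higher and 12 lower. Among those lower, Tgfb2 fell by 1.71 and the BMP antagonist Grem1 by 1.35. Immediate early genes were higher in 8 of 32 cases and lower in 15, with Fosb (-1.82), Klf2 (-1.42) and Fos (-1.32) lower and Maff higher (0.67). Tubulins were higher in 7 of 13 cases and lower in 0, and Tuba1b, at 4793 and 5377 CPM against 2558 and 2567 CPM, shares 64.4% of its windows with other tubulins. In the nuclear lamina and LINC list 8 of 16 were called higher and 4 lower. The lamin B receptor Lbr rose by 1.25, and Lmna, whose protein scales with tissue stiffness, had 472.8 and 423.9 CPM against 513.6 and 524.2 CPM and missed the threshold (-0.21, limma adjusted p = 0.0998, and 0.0142 under quantile normalization).

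Transcript length moved with the stiffness effect over all genes. The median log2 fold change in Cav1KO cells went from 0.19 for the 800 genes with transcripts up to 1000 nt to -0.46 for the 681 genes over 8000 nt, of which 48.9% were called lower and 11.3% higher. In the longest class it was -0.28 with Cav1KO stiff 1 and -0.61 with Cav1KO stiff 2, and in WT cells it was 0.15. With a smooth trend of the values on length removed from each library, an alternative chosen after the data were seen, the median was 0.66 for cholesterol synthesis, -2.76 for interferon-stimulated genes, -1.20 for collagens, 0.87 for DNA replication and -0.79 for lysosomal genes, and the actin list went from 20 higher and 16 lower to 20 and 21. Over all 45 lists, the median moved by more than the spread between libraries for 23. Among these, NRF2 targets went from 0.30 to 0.12, ribosomal proteins from 0.33 to 0.14 and the nuclear-encoded respiratory chain from 0.28 to 0.09.

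**Figure D4:**
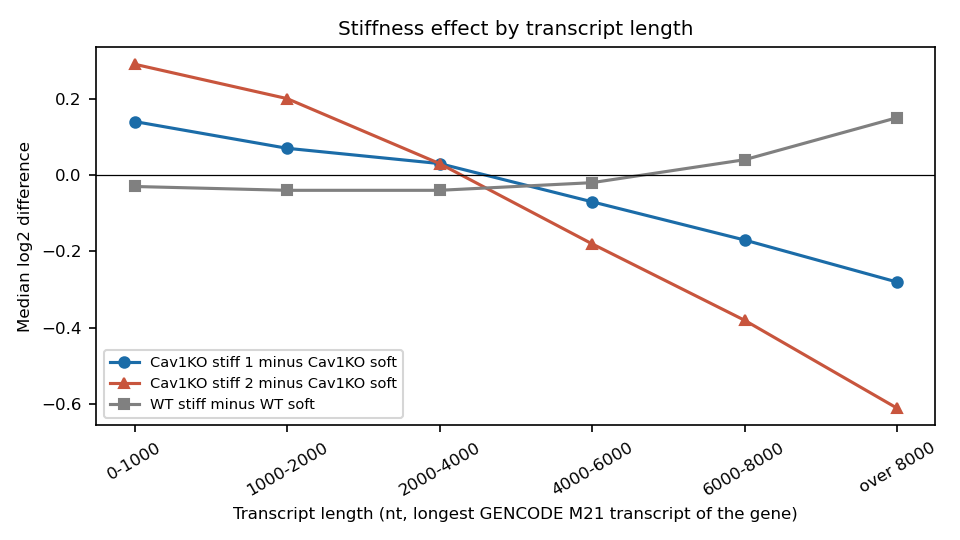
Median log2 difference between stiff and soft over genes in 6 classes of transcript length, for each Cav1KO stiff library against the Cav1KO soft mean and for WT cells. The Cav1KO medians decline with length, more steeply for Cav1KO stiff 2 (0.29 to -0.61) than for Cav1KO stiff 1 (0.14 to -0.28).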

How the data were processed

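The authors deposited 1 table of TMM-normalized CPM for all 8 libraries. The authors made this signal by scaling each gene's reads with the TMM-adjusted total of its library. The submitters' processing notes name CASAVA 1.8.2, cutadapt, RSEM 1.2.3 and the build GRCm38. Within a tolerance of 0.01, 100% of the values were whole multiples of 1 read, so reads were recovered (17137635 to 19020881 per Cav1KO library).

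Of 12528 genes listed (12451 matched to GENCODE M21, 78 without a symbol), 12494 reached 1 CPM in 2 or more libraries and entered limma 3.58.1 (R 4.3.3) as log2(CPM + 1), in 1 fit of 4 groups with a mean-variance trend and 4 residual degrees of freedom. P-values are two-sided, adjusted by Benjamini-Hochberg over all genes tested, with a threshold of 0.05. The authors compared the YAP targets between substrates by a Fisher exact test, and a test for single genes is not given in the sources used here. From the recovered reads, edgeR 4.0.16 gave 3464 genes higher and 3430 lower on the stiff substrate in Cav1KO cells, and DESeq2 1.42.0 gave 3061 and 2995. The limma, edgeR and DESeq2 steps were tested on simulated data.

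The gene lists, the members and the tests were chosen with earlier results of these data known. Lists are described by counts and medians, with no list test. A rule chose the genes that may be named: the 12 largest rises and falls among protein-coding genes past the threshold with a mean of at least 5 CPM and no overlap between substrates, from each list the 4 largest changes, the largest change against the majority and the 2 most abundant members, the 6 largest differences between genotypes in each direction, and genes named by the study. The 167 genes named were examined for 60-nt transcript windows that also occur in another listed gene, and those with 10% or more (20) are uncertain, namely Tgtp1, Tgtp2, Ifit3, C1s1, Sned1, Ccne2, Cdk4, Ccna2, Ctsb, Idi1, Eno1, Cryab, Sqstm1, Ppp1r14b, Vcl, Rpl27, Rplp0, Tuba1b, mt-Co1 and mt-Nd3. Counting any other annotated gene, 34 reached 10%, with mt-Nd4, Igf2, C1ra, Hspd1, Pgam1, Actg1, Ctsl, Pkm, Npm1, Odc1, Hspe1, Pcna, Ctgf and Gstm1 added, and these are uncertain as well. Promoters are RefSeq sequences of GRCm38.p6 from 250 bases before to 50 after the start. Alternatives covered pseudocounts, filters, scaling, the count tests, a replicate block, each Cav1KO library left out and a correction for transcript length.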

Additional observations from a re-analysis of the deposited data

Results flagged for a closer look

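The genes below are those named in the text whose stiffness effect differed between Cav1KO and WT cells in limma's test of the difference (adjusted p under 0.05). Values are the log2 effect in Cav1KO cells minus that in WT cells, and the 2 effects share no library. Of these 74 genes, 20 stayed past the threshold without Cav1KO soft 1, 20 without Cav1KO soft 2, 43 without Cav1KO stiff 2 and 74 without Cav1KO stiff 1, and all 74 kept their sign in each case. With edgeR and DESeq2 on the recovered reads, 64 and 67 passed and 71 kept their sign. The other 3 were Mcpt8, Serpina3n and Igf2, which had 0 to 1.27 CPM in every WT library, so their difference is uncertain. Cyp2f2 was equally low in WT cells. With pseudocounts of 0.1 and 5 CPM all 74 genes kept their sign, and why 3 signs turned with the count tests was not tested.

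Among the genes with the largest changes, the difference was 2.85 for Mcpt8, 2.48 for Akr1c18, 2.36 for Il13ra2, 1.28 for Ramp3, 0.91 for U90926, 0.68 for Gsr, -1.92 for Agt and -3.69 for Serpina3n. Among genes that fell in Cav1KO cells the difference was -2.99 for Cyp2f2, -2.61 for Ahnak2 and -2.46 for Prrc2c (whose fall in Cav1KO cells missed the threshold without Cav1KO soft 1, soft 2 and stiff 2, with limma adjusted p = 0.0733, 0.0582 and 0.08), and Cemip, a hyaluronan-degrading protein that fell further in WT cells, had 2.37.

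Immune genes included Il6 (2.59), Ccl2 (1.53), Ptx3 (1.23), Cxcl5 (0.96), Calr (0.77), Cx3cl1 (-0.54), C1ra (-0.87), Oasl2 (-1.50) and C3 (-2.98). C3 had 1289 and 1275 CPM on the soft substrate in Cav1KO cells against 98.4 and 148.1 CPM in WT cells, and the stiff libraries of both genotypes lay between 97.2 and 205.4 CPM.

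Among matrix genes the stiffness effect was mostly lower in Cav1KO than in WT cells, a difference of effects and not of levels, with Col1a1 (-1.86), Mmp9 (-1.74), Fn1 (-1.66), Mmp14 (-1.64), Postn (-1.57), Col6a2 (-1.40), Col1a2 (-1.05), Col6a1 (-1.04), Bmp1 (-0.99), Mmp2 (-0.72) and Bgn (-0.53), and Timp1 at 0.74. Growth factor and signaling genes were Igf2 (-1.23), Wisp2 (1.25), Klf2 (-0.63) and Maff (0.57). Lysosomal and autophagy genes were Psap (-0.61), Gaa (-0.66), Ctsb (-0.51), Calcoco1 (-0.62) and Ctsl (1.17).

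In lipid and sugar metabolism the difference was 2.08 for Idi1, 1.55 for Msmo1, 0.99 for Stard4, 0.86 for Sqle, 0.55 for Scd2, 0.91 for Ldha, 0.71 for Pgam1, 0.69 for Slc2a1 and 0.50 for Eno1. In biosynthesis and stress it was 0.88 for Psat1, 0.64 for Slc7a5, 0.58 for Nhp2, 0.50 for Gclm and 1.40 for mt-Nd3.

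In the cell cycle it was 2.07 for Cdkn1a, 1.2 for Trp53inp1, 0.72 for Pcna, 0.55 for E2f1, 0.52 for Ccne1, 0.48 for Mcm5, 0.59 for Lbr, -0.50 for Ccnd2, -1.63 for Top2a, -2.35 for Cenpe and -2.73 for Mki67. For Top2a, Cenpe and Mki67 it was -1.29, -2.03 and -2.14 without Cav1KO stiff 2. Without Cav1KO stiff 1 it was -1.98, -2.67 and -3.33. In the cytoskeleton and YAP lists it was -2.39 for Myh9, -1.59 for Amotl1, -1.32 for Vcl, -1.27 for Lima1, -0.63 for Cyr61, 0.57 for Tead2 and 0.77 for Ppp1r14b. For Myh9 and Amotl1 it was -1.85 and -1.17 without Cav1KO stiff 2. Without Cav1KO stiff 1 it was -2.94 and -2.01, so the size of these differences depended on the stiff library.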

How the results depend on the processing

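Of the 155 named genes that passed the threshold for the stiffness effect in Cav1KO cells, 142 passed it in the same direction under each of 16 alternatives, of which the length correction was chosen after seeing the data. Where 1 library was left out, the lone library of its group was assumed to vary like the other groups. Requiring a change of at least 2-fold left 425 genes higher and 1048 lower on the stiff substrate, and 174 with a higher and 297 with a lower effect in Cav1KO than in WT cells. The latter counts (750 and 559) were 391 and 314 without the mean-variance trend, 492 and 318 with a pseudocount of 0.1 CPM, 541 and 361 by edgeR and 696 and 774 by DESeq2. Leaving out 1 Cav1KO library gave 2669 to 3334 genes higher and 2478 to 3569 lower, 74 to 1689 with a higher and 36 to 1747 with a lower effect in Cav1KO cells, and 24 to 26 lists with more lower than higher calls (26 of 45 with all libraries).

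List medians with 1 library left out ran from -0.51 to -0.10 for focal adhesion adaptors, -1.77 to -1.10 for collagens, -1.26 to -0.89 for matrix glycoproteins, 0.91 to 0.93 for DNA replication, 0.57 to 0.65 for cholesterol synthesis, -2.92 to -2.60 for interferon-stimulated genes, 0.47 to 0.59 for the ATF4 list and -0.75 to -0.71 for lysosomal genes. A pseudocount of 5 CPM gave -1.03 for collagens, 0.85 for DNA replication, 0.55 for cholesterol synthesis, -2.18 for interferon-stimulated genes and -0.63 for lysosomal genes. For DNA replication, interferon-stimulated and lysosomal genes the medians were 0.92, -3.09 and -0.83 with a pseudocount of 0.1 CPM and 0.92, -3.07 and -0.84 by both edgeR and DESeq2. For DNA replication, cholesterol synthesis, the ATF4 list and lysosomal genes they were 0.99, 0.69, 0.65 and -0.63 under median centring and 0.87, 0.66, 0.50 and -0.79 with the length correction. Quantile normalization gave 0.85 for DNA replication and 0.45 for the ATF4 list. None of these 8 medians changed sign under these alternatives, whereas the median or the balance of calls turned under at least 1 alternative for the actin, Hippo, junction, caveola, p53, glycolysis, hypoxia and TGF-beta lists.

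Among named genes the sign turned for 4 that did not pass the threshold, namely Cav1 (-0.03 with the length correction and -0.17 to 0.26 over the libraries left out), Yap1 (0.14 with the length correction, 0.08 under median centring and -0.04 to 0.02 over the libraries left out), and Actg1 (-0.09) and Zyx (-0.08) under quantile normalization. The fold requirement and the pseudocounts change values by construction, and for the other alternatives the cause was not tested.

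With the replicate number as a block, 3460 genes were higher and 3512 lower on the stiff substrate, 755 and 569 had a higher and a lower effect in Cav1KO cells, and no named gene changed its call for the stiffness effect in Cav1KO cells. Deviations of same-numbered Cav1KO stiff and soft libraries correlated at 0.0646. Those of the other pairs of groups ran from -0.367 (WT stiff and soft) to 0.415 (Cav1KO and WT stiff). No label links a number to a common culture, and whether same-numbered libraries share more than the number is not known.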
